A study of Homo sapiens with 12 samples.

Results

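Lipofection of an siRNA against GAPDH into H1299 cells was compared with a buffer control at 12 h. The comparison comprised the 2 arrays labelled as lipofection at 12 h and the 2 arrays labelled as control at 12 h, 4 of the 12 arrays of the series, chosen by their titles. H1299 is an established human line from a non-small cell lung carcinoma, and it lacks p53. Lipofection cells had received GAPDH siRNA in a lipid carrier for 6 h, and control cells had received phosphate-buffered saline alone for the same 6 h. Both groups were grown in DMEM with 10% FCS, washed after the 6 h and collected at 12 h. The remaining groups were GAPDH siRNA carried by PTD-DRBD, a fusion of a peptide transduction domain to a double-stranded RNA binding domain, at 12 h, and the same 3 treatments at 24 h. No group received the lipid alone or an siRNA of another sequence, so that effects of the carrier, of double-stranded RNA and of the loss of GAPDH cannot be told apart. Whether both arrays of a group stem from independent cultures is not in the labels, and the p-values cover no more than array-to-array spread, which may be technical.

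Cationic lipids bind siRNA, and cells take up the complexes largely by endocytosis, so that lipid and RNA pass through endosomes and lysosomes before part of the siRNA reaches the cytosol. There the siRNA enters an Argonaute complex and directs cleavage of the matching mRNA, here that of GAPDH, an abundant enzyme of glycolysis. Cells answer foreign double-stranded RNA through sensors that induce interferon genes, oxidants through the factor NRF2, and blocked translation or amino acid shortage through the factor ATF4. Low sterol in the endoplasmic reticulum frees the factor SREBP2, which induces cholesterol synthesis.

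The non-normalized signals were background-corrected, normalized and expressed as log2 intensity, and 12117 genes with a probe above background in at least 1 group were tested. Between 18521 and 18641 probes were above background in the lipofection arrays and between 18528 and 18624 in the control arrays. The median SD between the 2 arrays of a group was 0.05 log2 units with lipofection and 0.07 in the controls. Differences are given as log2 fold changes, lipofection minus control, each with its standard error (SE) and a limma p-value adjusted over all 12117 genes, n = 2 arrays per group throughout, and a gene passed where this adjusted p was under 0.05. Of 23 markers of leukocytes, red cells, fibroblasts and endothelium, 6 were measured, and their summed linear intensity was 3910 and 3761 in the lipofection arrays, against 3420 and 3636 in the control arrays. Of 15 genes listed for the line itself, 4 were measured, KRT8, KRT18, VIM and CDH1. None of the 4 rose and 2, KRT8 among them, passed as lower, which is 50% against 6.92% of all genes, at a median of -0.24. The mesenchymal filament gene VIM read 15.07 and 15.08 in the lipofection arrays, against 14.96 and 15.06 in the control arrays, and the epithelial keratin gene KRT8 read 8.27 and 8.35 in the lipofection arrays, against 8.74 and 8.90 in the control arrays.

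At 12 h, 600 genes were higher and 839 lower with lipofection, which is 4.95% and 6.92% of the genes tested and 11.9% in all. Most of these differences were small. Among the genes that rose, 516 differed by less than 1.6-fold, 53 by 1.6-fold to 2-fold and 31 by 2-fold or more, and 6 of these 31 differed by 4-fold or more. Genes past 1.6-fold were 0.693% higher and 0.776% lower of those tested. Among those that fell, 745 differed by less than 1.6-fold, 75 by 1.6-fold to 2-fold and 19 by 2-fold or more. With any single array left out, between 516 and 710 genes passed, and 382 of the 1439 genes, 157 that rose and 225 that fell, or 1.3% and 1.86% of the genes tested, passed in all 4 of these fits. The lipofection arrays lay wholly above the control arrays in 29.6% of genes and wholly below them in 29.7%, whether or not the gene passed. The genes named in the following paragraphs as having risen or fallen belong to those 382 except where a lost call is stated. The median difference over all genes was -0.00078, and the counts and median of each list of genes below are to be read against this value and the shares of 4.95% and 6.92%.

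**Figure D1:**
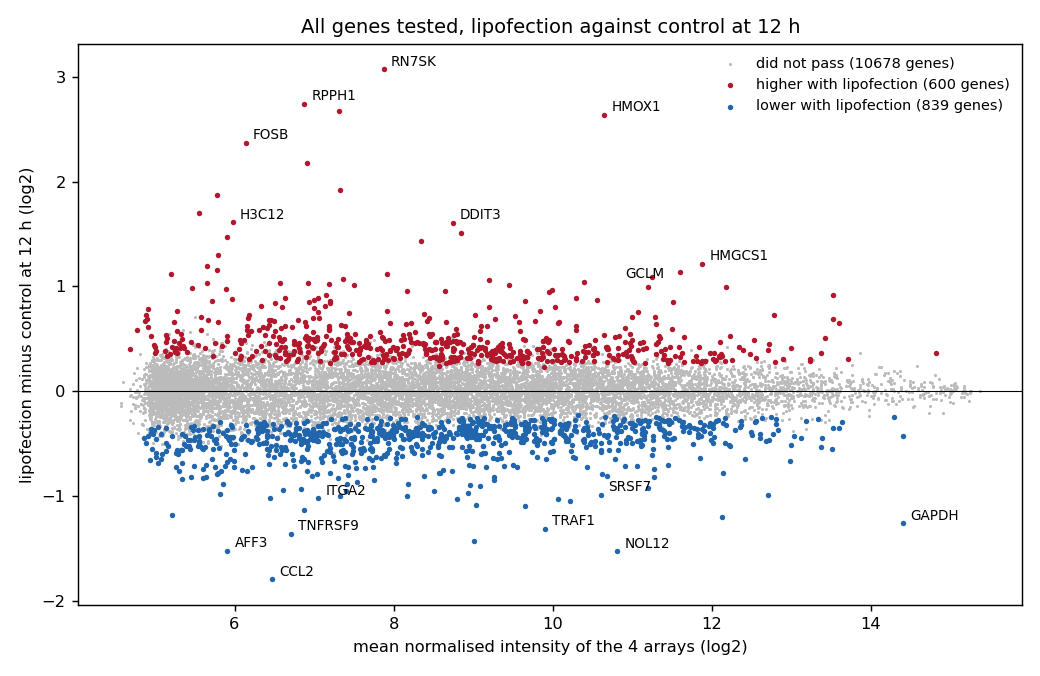
Difference between lipofection and control at 12 h (log2, y axis) against the mean normalised intensity of the 4 arrays (log2, x axis), 1 point per gene, with 600 genes that rose in red, 839 that fell in blue and the others in grey. Most coloured points lie within 1 log2 unit of 0, the 4 largest rises belong to RN7SK, RPPH1, SNORD15B and HMOX1, and CCL2, NOL12, AFF3 and GAPDH are among the largest falls.

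GAPDH, the target of the siRNA, read 13.81 and 13.74 in the lipofection arrays, against 15.02 and 15.05 in the control arrays. Its difference was -1.26 ± 0.08 (SE, limma adjusted p = 5.56e-06). The array carries 3 probes for it. One of them had raw signals of 5209 and 5168 in the lipofection arrays, against 22284 and 20943 in the control arrays. The probe with the highest mean, which stands for the gene, had raw signals of 13781 and 13678 in the lipofection arrays, against 35974 and 34102 in the control arrays. The 3 probes gave log2 fold changes of -2.03, -1.84 and -1.26, each with non-overlapping arrays. Of 15 other genes commonly used as references, limma called none, 0 had an unadjusted p under 0.05, and their median was 0.06. ACTB, for actin, read 15.11 and 15.10 in the lipofection arrays, against 15.06 and 15.07 in the control arrays.

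The antioxidant genes driven by NRF2 gave rises and no fall. Of 28 measured, 12 rose and none fell, with a median of 0.20, and 7 of the 12 passed without each array in turn. HMOX1, also an NRF2 target but counted here with the heme genes, breaks down heme and read 11.92 and 12.01 in the lipofection arrays, against 9.34 and 9.31 in the control arrays, a difference of 2.64 ± 0.07 (SE, limma adjusted p = 5.11e-09). GCLM, the modifier subunit of the enzyme that starts glutathione synthesis, read 12.13 and 12.20 in the lipofection arrays, against 11.06 and 10.99 in the control arrays, a difference of 1.14 ± 0.08 (SE, limma adjusted p = 1.11e-05). The arrays of both genes lay far apart by group and close together within it. SLC7A11, the cystine importer that feeds this synthesis, was dim, at 6.37 and 6.14 in the lipofection arrays, against 5.10 and 5.02 in the control arrays, where only 1 of the 2 control arrays detected it, and differed by 1.196 ± 0.12 (SE, limma adjusted p = 0.000157). The thiol-repair and quinone enzymes SRXN1 (1.09), NQO1 (0.91), GSR (0.80) and TXNRD1 (0.73) rose on the log2 scale by the amounts in brackets. So did ME1, which makes NADPH from malate, at 0.77. NFE2L2, the gene of NRF2 itself, did not pass and read 11.30 and 11.35 in the lipofection arrays, against 11.35 and 11.12 in the control arrays. GCLC, the catalytic partner of GCLM, passed at 0.32 but lost its call without each of the 4 arrays, with adjusted p up to 0.218.

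The antioxidant response element, TGACNNNGC, is the sequence to which NRF2 binds. In the 250 bases before the start site, on either strand, these letters occurred in 12.5% of 9918 promoters, in 15.2% of the 479 promoters of genes that rose and in 10% of the 687 of genes that fell. At 1.6-fold or more, the shares were 12.7% of 55 promoters of genes that rose and 5.56% of 72 of genes that fell. Of 21 promoters of the NRF2 list in the RefSeq table of build GRCh38.p14, 5 held the element. Among the 9 of them whose genes rose, 3 held it. These are shown 5′ to 3′ on the gene's own strand, with the element in capitals.
GCLM, chr1:93909431-93909680, minus strand: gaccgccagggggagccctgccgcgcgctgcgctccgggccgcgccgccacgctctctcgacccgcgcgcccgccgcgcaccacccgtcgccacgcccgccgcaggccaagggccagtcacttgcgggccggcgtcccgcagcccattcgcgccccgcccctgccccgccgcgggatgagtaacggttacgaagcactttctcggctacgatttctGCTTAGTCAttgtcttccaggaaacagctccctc
TXNRD1, chr12:104215529-104215778, plus strand: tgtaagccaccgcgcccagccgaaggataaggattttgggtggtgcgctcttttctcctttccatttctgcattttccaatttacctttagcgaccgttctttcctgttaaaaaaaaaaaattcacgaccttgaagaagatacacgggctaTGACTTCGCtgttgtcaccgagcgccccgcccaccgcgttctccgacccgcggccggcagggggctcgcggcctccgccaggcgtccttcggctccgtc
ME1, chr6:83431052-83431301, minus strand: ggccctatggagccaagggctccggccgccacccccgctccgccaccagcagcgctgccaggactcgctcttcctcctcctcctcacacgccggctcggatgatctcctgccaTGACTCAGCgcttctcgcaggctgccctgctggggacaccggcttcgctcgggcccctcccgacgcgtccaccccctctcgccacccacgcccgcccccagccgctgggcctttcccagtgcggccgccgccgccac

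Of 27 genes of heme and iron handling, 4 rose and 2 fell at a median of 0.0033. ABCB6, a porphyrin transporter, read 7.40 and 7.55 in the lipofection arrays, against 6.83 and 6.94 in the control arrays, a difference of 0.59 ± 0.10 (SE, limma adjusted p = 0.00373). FTL, the ferritin light chain, passed at 0.36, and ALAS1, which starts heme synthesis, at 0.44, but both lost the call with arrays left out, with adjusted p up to 0.0992 and 0.165. Of 15 genes of the pentose phosphate pathway and NADPH supply, 4 rose and 1 fell, at a median of 0.10. RPIA, which interconverts pentose phosphates, was the member that fell, reading 10.56 and 10.52 in the lipofection arrays, against 11.29 and 11.24 in the control arrays, a difference of -0.72 ± 0.07 (SE, limma adjusted p = 8.73e-05).

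Glycolysis apart from GAPDH changed in few members. Of 23 genes, 3 rose and 2 fell, at a median of 0.08. SLC2A3, a glucose transporter, read 10.92 and 10.90 in the lipofection arrays, against 9.96 and 9.78 in the control arrays, a difference of 1.04 ± 0.10 (SE, limma adjusted p = 6.89e-05), and was the 1 member that passed without each array in turn. Hypoxia-induced genes, several of which belong to glycolysis, gave 1 rise and 4 falls of 24, at a median of 0.11. Of these, EPAS1, a hypoxia-inducible factor subunit, read 9.02 and 9.04 in the lipofection arrays, against 9.66 and 9.68 in the control arrays. ANGPTL4, a secreted inhibitor of lipoprotein lipase, differed by -0.82 ± 0.11 (SE, limma adjusted p = 0.000737). Nuclear-encoded subunits of the respiratory chain gave 2 rises and no fall of 75, or 2.67%, at a median of 0.01.

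Regulators of the integrated stress response gave rises and no fall. Of 25 measured genes, 10 rose and none fell, with a median of 0.22, and 5 of the 10 passed without each array in turn. DDIT3, the factor CHOP that acts downstream of ATF4, read 9.52 and 9.56 in the lipofection arrays, against 7.93 and 7.95 in the control arrays, a difference of 1.604 ± 0.11 (SE, limma adjusted p = 8.41e-06). ATF3, another stress-induced factor, read 9.54 and 9.66 in the lipofection arrays, against 8.07 and 8.11 in the control arrays, a difference of 1.51 ± 0.09 (SE, limma adjusted p = 3.33e-06). TRIB3, a pseudokinase that restrains ATF4, rose by 0.95, and PPP1R15A, which restores translation by directing dephosphorylation of eIF2 alpha, by 0.70. SESN2, a leucine sensor, was below background in both control arrays and was at least 1.62-fold higher with lipofection (limma adjusted p = 0.00052). ATF4 itself, which is set mainly through its translation, did not pass and read 14.46 and 14.46 in the lipofection arrays, against 14.26 and 14.28 in the control arrays.

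Many genes of amino acid supply are targets of ATF4. Of 24 genes of amino acid synthesis and transport, 8 rose and none fell, at a median of 0.10. Beside SLC7A11, the cysteine-forming enzyme CTH (0.50), the transporter heavy chain SLC3A2 (0.48) and asparagine synthetase ASNS (0.45) passed in every fit without an array. ASNS read 12.97 and 12.92 in the lipofection arrays, against 12.51 and 12.48 in the control arrays. Of 20 cytosolic tRNA synthetase genes, 3 rose, at a median of 0.11, none of which passed without each array.

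Among protein folding genes, the calls lay in the list of the endoplasmic reticulum. Of its 28 chaperone and degradation genes, 4 rose and 1 fell, or 14.3% and 3.57%, at a median of 0.11. DNAJB9, a cochaperone of BiP, read 9.60 and 9.58 in the lipofection arrays, against 8.82 and 8.77 in the control arrays, a difference of 0.80 ± 0.08 (SE, limma adjusted p = 0.000152). HSPA5, the gene of BiP, read 9.57 and 9.61 in the lipofection arrays, against 9.91 and 9.82 in the control arrays; its fall of -0.28 ± 0.07 (SE, limma adjusted p = 0.0277) was lost without each of the 4 arrays, with adjusted p up to 0.171. Of 23 heat shock and cytosolic chaperone genes, limma called none at an adjusted p under 0.05, and 3 had an unadjusted p under 0.05, at a median of 0.08. HSPA1A, the inducible HSP70, read 12.44 and 12.46 in the lipofection arrays, against 12.39 and 12.35 in the control arrays. Proteasome subunits gave 4 rises of 37, at a median of 0.12, none of which passed without each array.

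Cholesterol genes held a high share of calls. Of 31 genes of cholesterol synthesis, uptake and control, 16 rose and 1 fell, with a median of 0.30, and 9 of the 16 passed without each array in turn. HMGCS1, which condenses acetyl units at the head of the pathway, read 12.48 and 12.48 in the lipofection arrays, against 11.32 and 11.22 in the control arrays, a difference of 1.21 ± 0.08 (SE, limma adjusted p = 8.87e-06). The mevalonate enzymes MVK (0.84) and MVD (0.95) and the isomerase IDI1 (0.76) rose. So did 3 enzymes that finish the sterol rings, MSMO1 (0.99), SC5D (0.66) and NSDHL (0.46). INSIG1, which holds SREBP in the endoplasmic reticulum and is itself a target of SREBP, read 11.91 and 11.96 in the lipofection arrays, against 11.03 and 11.15 in the control arrays, a difference of 0.85 ± 0.09 (SE, limma adjusted p = 0.000191). STARD4, a carrier of cholesterol between membranes, read 6.51 and 6.31 in the lipofection arrays, against 5.67 and 5.40 in the control arrays, a difference of 0.87 ± 0.14 (SE, limma adjusted p = 0.00232). The 1 member that fell was ABCA1, which exports cholesterol, at -0.29, a call lost without each array.

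Of 17 genes of fatty acid synthesis and desaturation, 3 rose, at a median of 0.15, none of which passed without each array. Of 46 genes of phospholipids, sphingolipids and lipid droplets, 4 rose and 2 fell at a median of 0.04. LPIN1, a phosphatidate phosphatase, read 11.85 and 11.74 in the lipofection arrays, against 11.20 and 11.20 in the control arrays, a difference of 0.60 ± 0.08 (SE, limma adjusted p = 0.00108). GPAT3, which begins glycerolipid synthesis, rose by 0.51, and MGLL, which cleaves monoglycerides, fell by 0.60 on the log2 scale. Fatty acid oxidation gave 2 rises and 1 fall of 24, at a median of 0.08, none of which passed without each array.

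The CCAAT box, bound by the factor NF-Y, was the motif whose share differed by the largest number of percentage points between genes that rose and genes that fell among the 22 motifs searched. It occurred in 47.6% of the promoters of genes that rose, in 28.8% of those of genes that fell and in 35.5% of all 9918, over the same 250 bases and both strands. Without the cholesterol, histone and mitosis lists, the shares were 45.9%, 28.6% and 35%. In the cholesterol list, 19 of 28 promoters held it, and so did 12 of the 16 of genes that changed. The sterol response element TCACNCCAC, by contrast, was found in 1 of 28 promoters of the list, and no match says only that these letters are not in this window. Promoters of 2 cholesterol genes with several CCAAT boxes, in either orientation, are shown with the boxes in capitals.
MSMO1, chr4:165327419-165327668, plus strand: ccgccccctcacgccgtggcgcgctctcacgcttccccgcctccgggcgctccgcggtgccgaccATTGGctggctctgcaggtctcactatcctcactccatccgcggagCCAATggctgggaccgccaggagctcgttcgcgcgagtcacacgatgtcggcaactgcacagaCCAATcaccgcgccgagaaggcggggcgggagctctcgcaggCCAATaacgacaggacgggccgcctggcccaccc
MVD, chr16:88663092-88663341, minus strand: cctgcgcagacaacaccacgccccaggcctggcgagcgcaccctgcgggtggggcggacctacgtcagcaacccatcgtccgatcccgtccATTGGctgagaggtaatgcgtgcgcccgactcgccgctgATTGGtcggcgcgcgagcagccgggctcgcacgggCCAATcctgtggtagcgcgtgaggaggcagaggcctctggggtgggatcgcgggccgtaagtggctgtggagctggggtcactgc

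Lysosomal and autophagy genes gave mostly rises, the majority of them under 1.6-fold. Of 45 genes of lysosomal hydrolases and membranes, 10 rose and none fell, at a median of 0.12, and 5 passed without each array. NEU1, a sialidase, read 9.77 and 9.68 in the lipofection arrays, against 8.59 and 8.75 in the control arrays, a difference of 1.06 ± 0.10 (SE, limma adjusted p = 6.82e-05). The protease CTSL (0.53), the galactosidase GLA (0.53) and the mannosidase MANBA (0.39) followed. CTSK, another protease, was below background in both control arrays and was at least 1.43-fold higher with lipofection (limma adjusted p = 0.00675). Of 18 genes of the vacuolar proton pump, which acidifies lysosomes, 4 rose and none fell, at a median of 0.16, and ATP6V1E1 at 0.40 was the one that passed without each array.

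Of 43 autophagy genes, 14 rose and 2 fell, at a median of 0.15. GABARAPL1, a ubiquitin-like protein of the autophagosome membrane, read 12.60 and 12.75 in the lipofection arrays, against 11.68 and 11.68 in the control arrays, a difference of 1.00 ± 0.08 (SE, limma adjusted p = 2.54e-05). SQSTM1, the cargo receptor p62 and also a target of NRF2, read 13.88 and 13.96 in the lipofection arrays, against 13.30 and 13.24 in the control arrays, a difference of 0.65 ± 0.10 (SE, limma adjusted p = 0.00244). TP53INP1 (0.65) and FLCN (0.49), a protein that binds LC3 and a regulator of lysosomal nutrient signalling, rose as well. OPTN, a cargo receptor, fell, reading 8.79 and 8.81 in the lipofection arrays, against 9.32 and 9.20 in the control arrays. The uptake route itself gave few calls, with 1 rise and 2 falls of 42 endocytosis genes (median 0.03) and 1 rise of 32 genes of ESCRT and membrane repair (median 0.01), none of which passed without each array.

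**Figure D2:**
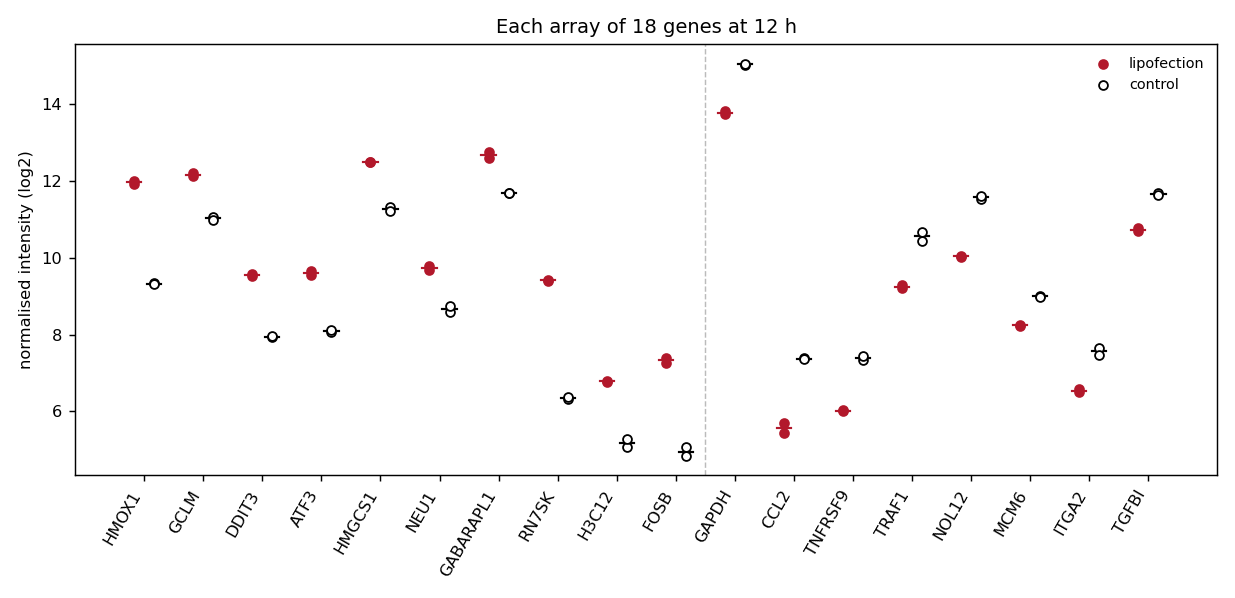
Normalised intensity (log2, y axis) of 18 genes on each of the 2 lipofection arrays (red) and the 2 control arrays (open), with short lines at the means and a dashed line between genes that rose and genes that fell. The 18 genes were picked among those that passed, so that the lack of overlap between their groups is not read as a result. Over all genes tested, the lipofection arrays lay wholly above the control arrays in 29.6% and wholly below them in 29.7%. HMOX1 lies at 11.92 and 12.01 with lipofection, against 9.34 and 9.31 in the controls, and CCL2 at 5.45 and 5.71, against 7.39 and 7.36.

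Short noncoding RNAs and histone mRNAs held many of the 20 largest rises. These RNAs normally lack a poly(A) tail, and the labelling kit named in the labels copies RNA from such tails, so that a change in RNA level and a change in the share of RNA that was copied cannot be told apart. RN7SK, the RNA that holds the elongation factor P-TEFb inactive, read 9.39 and 9.43 in the lipofection arrays, against 6.31 and 6.37 in the control arrays, a difference of 3.07 ± 0.17 (SE, limma adjusted p = 3.33e-06). RPPH1, the catalytic RNA that trims tRNA ends, read 8.21 and 8.28 in the lipofection arrays, against 5.32 and 5.69 in the control arrays, and RNU6ATAC, of the minor spliceosome, read 8.41 and 8.16 in the lipofection arrays, against 6.39 and 6.34 in the control arrays. With these 3, 3 of 5 measured RNAs of this kind rose, at a median of 1.92.

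Of 42 small nucleolar and Cajal body RNAs, which guide the modification of other RNAs, 22 rose and 1 fell, with a median of 0.44, and 15 passed without each array in turn. SNORD15B read 8.62 and 8.68 in the lipofection arrays, against 5.86 and 6.11 in the control arrays, a difference of 2.67 ± 0.13 (SE, limma adjusted p = 7.55e-07), and SNORD4A read 8.40 and 8.55 in the lipofection arrays, against 7.33 and 7.38 in the control arrays. SNORD101, detected on 1 of the 2 control arrays, differed by 1.16 ± 0.17 (SE, limma adjusted p = 0.00183). SNORD38B was below background in both control arrays and was at least 2.55-fold higher with lipofection (limma adjusted p = 1.42e-05). The list median was 0.30 without background correction and 0.14 with each array corrected for its trend on gene length. Among 10 snoRNA host genes, from whose introns such RNAs are cut, limma called none, and 3 had an unadjusted p under 0.05, at a median of -0.04. Proteins that act on 7SK and elongation gave 1 rise and 2 falls of 20, at a median of 0.11. AFF3, a relative of the elongation complex scaffolds, read 5.09 and 5.204 in the lipofection arrays, against 6.67 and 6.68 in the control arrays, a difference of -1.53 ± 0.12 (SE, limma adjusted p = 2.54e-05). BRF2, a subunit of the polymerase III initiation factor used at the RN7SK gene, rose by 0.47. With PTD-DRBD against the control BRF2 also rose, by 0.45, while none of the 5 RNAs listed with RN7SK passed as higher. A link between them was not tested.

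Of 49 replication-dependent histone genes, which supply DNA packaging in S phase, 15 rose and 3 fell, at a median of 0.23, and 10 passed without each array. The median was 0.14 without background correction, without control replicate 1 or with the correction for gene length. H3C12 read 6.79 and 6.77 in the lipofection arrays, against 5.06 and 5.28 in the control arrays, a difference of 1.61 ± 0.10 (SE, limma adjusted p = 4.99e-06). H2AC12 read 6.62 and 6.66 in the lipofection arrays, against 5.09 and 5.24 in the control arrays, a difference of 1.48 ± 0.09 (SE, limma adjusted p = 6.51e-06). H4C2 was below background in both control arrays and was at least 3.15-fold higher with lipofection (limma adjusted p = 0.00026). H2BC11 went the other way, reading 8.28 and 8.29 in the lipofection arrays, against 8.88 and 8.92 in the control arrays, a call lost without each array (adjusted p up to 0.0785). Histone genes are near-identical copies, so a probe may read several of them.

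Of 8 FOS and JUN family genes measured, 3 rose and 1 fell, at a median of 0.13. FOSB read 7.38 and 7.27 in the lipofection arrays, against 5.06 and 4.85 in the control arrays, a difference of 2.37 ± 0.09 (SE, limma adjusted p = 1.68e-07), and only 1 of the 2 control arrays detected it. FOS read 8.10 and 7.89 in the lipofection arrays, against 5.81 and 5.82 in the control arrays, a difference of 2.18 ± 0.29 (SE, limma adjusted p = 0.000909). BATF3, a related inhibitor of AP-1, fell, reading 8.88 and 8.72 in the lipofection arrays, against 9.44 and 9.61 in the control arrays. Of 33 EGR, KLF and other early genes, 6 rose and 6 fell, at a median of -0.05. EGR1, a zinc finger factor induced by growth signals, read 9.07 and 9.06 in the lipofection arrays, against 7.65 and 7.61 in the control arrays, a difference of 1.43 ± 0.08 (SE, limma adjusted p = 3.33e-06), and NR4A2 (0.69) and ZFP36 (0.76), an orphan receptor and an mRNA decay factor, rose with it. Going the other way were SGK1 (-0.71), a kinase of stress and steroid signalling, ID1 (-0.65), an inhibitor of differentiation factors, HBEGF (-0.59), a ligand of the EGF receptor, and IER3 (-0.44). The call of ID1 was lost when all its probes were averaged, at an adjusted p of 0.259. RASD1, a small GTPase outside these lists, was among the 20 largest rises, at 6.46 and 6.41 in the lipofection arrays, against 5.26 and 5.02 in the control arrays, of which 1 detected it. Genes set by ERK and EGF family ligands gave 2 rises and 6 falls of 26, at a median of -0.12, with DUSP5, an ERK phosphatase, at 0.47 and PHLDA1 at -0.48. The core of the serum response element, searched as its consensus on both strands, was in 0.998% of all promoters, in 1.88% of those of genes that rose and in 1.75% of those of genes that fell. A narrower form with every base fixed was in 0.0605%, 0.418% and 0%. The EGR1 promoter holds the consensus at 105 and 83 bases before the start, of which only the match at 105 has the narrower form. Both matches are shown in capitals.
EGR1, chr5:138465229-138465478, plus strand: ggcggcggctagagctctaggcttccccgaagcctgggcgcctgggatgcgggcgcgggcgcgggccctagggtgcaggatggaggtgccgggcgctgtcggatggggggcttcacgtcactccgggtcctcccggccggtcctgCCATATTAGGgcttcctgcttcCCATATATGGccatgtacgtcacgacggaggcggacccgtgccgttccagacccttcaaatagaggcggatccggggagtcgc

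Interferon-stimulated genes were more often lower than higher. Of 39 measured, 2 rose and 8 fell, at a median of -0.14. IFIT2, which binds foreign RNA and restrains translation, read 7.42 and 7.57 in the lipofection arrays, against 6.60 and 6.62 in the control arrays, a difference of 0.89 ± 0.10 (SE, limma adjusted p = 0.000215). IFIT1 passed at 0.61, a call lost with arrays left out (adjusted p up to 0.239). ISG15, a ubiquitin-like protein of the interferon response, did not pass and read 10.79 and 10.65 in the lipofection arrays, against 10.72 and 10.93 in the control arrays. TAP1, the peptide transporter of antigen presentation, was the 1 of the 8 falls that passed without each array, reading 10.44 and 10.40 in the lipofection arrays, against 10.96 and 11.01 in the control arrays, a difference of -0.56 ± 0.07 (SE, limma adjusted p = 0.000738).

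Sensors of double-stranded RNA gave 1 rise and 4 falls of 17, at a median of -0.01. IFIH1, the sensor MDA5, read 9.67 and 9.52 in the lipofection arrays, against 10.21 and 10.28 in the control arrays, a difference of -0.65 ± 0.08 (SE, limma adjusted p = 0.000358). RIGI read 6.20 and 6.11 in the lipofection arrays, against 6.67 and 6.77 in the control arrays, a call lost without each array (adjusted p up to 0.129). Of 18 genes of the RNA interference machinery, 1 rose and 1 fell, at a median of 0.09. TNRC6A, the scaffold that silences Argonaute targets, read 7.69 and 7.64 in the lipofection arrays, against 7.07 and 7.25 in the control arrays, a difference of 0.50 ± 0.08 (SE, limma adjusted p = 0.00344). AGO2, the Argonaute that cleaves, did not pass and read 11.61 and 11.60 in the lipofection arrays, against 11.45 and 11.35 in the control arrays, and DICER1 read 10.28 and 10.30 in the lipofection arrays, against 10.20 and 10.39 in the control arrays.

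Chemokines and cytokines gave falls and no rise. Of 23 measured genes of secreted immune signals and their receptors, none rose and 11 fell, which is 47.8% against 6.92% of all genes, with a median of -0.30, and 7 passed without each array. CCL2, which attracts monocytes, read 5.45 and 5.71 in the lipofection arrays, against 7.39 and 7.36 in the control arrays, a difference of -1.80 ± 0.16 (SE, limma adjusted p = 5.68e-05). TNFRSF9, the costimulatory receptor 4-1BB, read 6.01 and 6.03 in the lipofection arrays, against 7.34 and 7.43 in the control arrays, a difference of -1.36 ± 0.10 (SE, limma adjusted p = 1.3e-05). CXCL8, a neutrophil attractant, was below background in both lipofection arrays and was at least 1.67-fold lower with lipofection (limma adjusted p = 4.41e-05). CXCL1 read 8.09 and 7.96 in the lipofection arrays, against 9.03 and 8.93 in the control arrays, and CXCL2, its near relative, read 7.01 and 7.19 in the lipofection arrays, against 8.01 and 7.94 in the control arrays. CCL20 and IL32 differed by -0.98 and -0.85.

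NF-kappaB is the factor that induces many of these cytokines. Of 22 subunits, inhibitors and feedback genes, 1 rose and 7 fell, at a median of -0.07. TRAF1, an adaptor of tumour necrosis factor receptors, read 9.29 and 9.21 in the lipofection arrays, against 10.67 and 10.45 in the control arrays, a difference of -1.31 ± 0.11 (SE, limma adjusted p = 4.41e-05). CD83, a surface protein of activated immune cells, read 8.38 and 8.33 in the lipofection arrays, against 9.13 and 9.10 in the control arrays. The subunit genes RELB (-0.58) and NFKB2 (-0.52) fell, while NFKB1 (-0.47) and RELA (-0.36) lost their calls with arrays left out, at adjusted p up to 0.0818 and 0.316. Of these subunits, RELB and NFKB2 form the noncanonical branch.

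The kappaB element, searched as its consensus on both strands, occurred within 250 bases before the start in 6.02% of all promoters, in 5.85% of those of genes that rose and in 8.88% of those of genes that fell. A narrower form of it, with a fixed base at all but 1 position, was in 0.615%, 0.835% and 1.89%, and the shorter form GGGANTTCC in 2.18%, 3.55% and 3.06%, so that the order of rises and falls differs between the forms. In the NF-kappaB list, 6 of 18 promoters held the longer consensus, and so did 2 of the 7 of genes that changed. In the cytokine list, 7 of 17 promoters held it. Among the 9 cytokine genes that fell and had a promoter in the table, 5 held it, CCL20, CXCL1, CXCL2, TNFRSF9 and IL32. Promoters of 3 of them are shown with the element in capitals, each matching on both strands with an offset of 1 base. It began 79 bases before the start of CXCL1, 78 before that of CXCL2 and 74 before that of TNFRSF9.
CXCL1, chr4:73869143-73869392, plus strand: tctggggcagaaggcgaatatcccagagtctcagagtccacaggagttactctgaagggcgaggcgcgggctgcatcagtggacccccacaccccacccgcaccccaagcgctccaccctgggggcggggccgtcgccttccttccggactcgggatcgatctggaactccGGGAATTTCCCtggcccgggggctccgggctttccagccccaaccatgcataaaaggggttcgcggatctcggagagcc
CXCL2, chr4:74099196-74099445, minus strand: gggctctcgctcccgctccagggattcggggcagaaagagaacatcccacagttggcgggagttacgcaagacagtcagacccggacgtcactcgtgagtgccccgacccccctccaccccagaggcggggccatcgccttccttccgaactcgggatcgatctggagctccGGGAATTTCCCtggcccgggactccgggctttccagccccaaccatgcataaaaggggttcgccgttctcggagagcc
TNFRSF9, chr1:7940840-7941089, minus strand: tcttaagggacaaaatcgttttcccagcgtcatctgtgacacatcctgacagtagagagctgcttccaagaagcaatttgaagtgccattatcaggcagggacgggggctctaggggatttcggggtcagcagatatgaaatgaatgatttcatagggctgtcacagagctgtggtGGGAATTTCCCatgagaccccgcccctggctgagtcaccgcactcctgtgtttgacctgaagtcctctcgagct

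In bulk RNA, a change in the share of cells in a phase and a change of RNA per cell cannot be told apart. Of 47 genes of DNA replication and S phase, none rose and 9 fell, at a median of -0.11. MCM6, a subunit of the replicative helicase, read 8.23 and 8.25 in the lipofection arrays, against 9.00 and 8.99 in the control arrays, a difference of -0.75 ± 0.09 (SE, limma adjusted p = 0.000587). MCM10, which activates that helicase, read 9.92 and 9.95 in the lipofection arrays, against 10.54 and 10.59 in the control arrays, and CCNE1, the cyclin of S phase entry, read 7.41 and 7.39 in the lipofection arrays, against 7.96 and 8.15 in the control arrays. POLE2, a polymerase subunit, was the remaining one of 4 that passed without each array.

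Of 47 genes of G2 and mitosis, 14 rose and none fell, at a median of 0.19. KIF4A, a chromosome motor, read 11.19 and 11.22 in the lipofection arrays, against 10.61 and 10.59 in the control arrays, a difference of 0.60 ± 0.08 (SE, limma adjusted p = 0.000832). The kinetochore gene NDC80 (0.51), the mitotic motor KIF20A (0.52) and the phosphatase CDC25C (0.50) completed the 4 that passed without each array. CDKN1B, the inhibitor p27, read 9.89 and 9.87 in the lipofection arrays, against 9.14 and 9.19 in the control arrays, a difference of 0.72 ± 0.10 (SE, limma adjusted p = 0.00151), in a list of 20 G1 cyclins and inhibitors of which 3 rose, at a median of -0.03. DNA repair genes gave no rise and 6 falls of 46, at a median of -0.05, none of which passed without each array.

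Cell death genes gave more falls than rises. Of 36 genes of the BCL2 family and death receptors, 2 rose and 6 fell, or 5.56% and 16.7%, at a median of -0.02. TNFRSF10D, a decoy receptor, read 7.31 and 7.51 in the lipofection arrays, against 6.60 and 6.82 in the control arrays, a difference of 0.70 ± 0.12 (SE, limma adjusted p = 0.00312). BMF, which opposes BCL2, was below background in both control arrays and was at least 1.14-fold higher with lipofection (limma adjusted p = 0.00424). FAS, a death receptor, was below background in both lipofection arrays and was at least 1.21-fold lower (limma adjusted p = 0.0054). Of 21 p53 target genes, in a line without that factor, 3 rose and 2 fell, at a median of 0.02.

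Of 66 genes that build ribosomes in the nucleolus, none rose and 14 fell, at a median of -0.14, and 4 passed without each array. NOL12, a nucleolar RNA-binding protein, read 10.06 and 10.03 in the lipofection arrays, against 11.53 and 11.62 in the control arrays, a difference of -1.53 ± 0.12 (SE, limma adjusted p = 1.81e-05), far from the next member. NIP7, a maturation factor of the large subunit, read 11.97 and 11.96 in the lipofection arrays, against 12.48 and 12.50 in the control arrays, a difference of -0.52 ± 0.07 (SE, limma adjusted p = 0.000688). PPAN (-0.49) and NOP56 (-0.45), a core protein of C/D snoRNA particles, fell as well. Of 68 cytosolic ribosomal protein genes, limma called none, 3 had an unadjusted p under 0.05, and their median was -0.0026. Mitochondrial ribosome and import genes gave 1 rise and 5 falls of 93, or 1.08% and 5.38%, at a median of -0.05.

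Of 49 splicing factor genes, 3 rose and 2 fell, at a median of 0.04. SRSF7, a serine- and arginine-rich factor, stood apart, reading 10.11 and 10.11 in the lipofection arrays, against 11.13 and 11.08 in the control arrays, a difference of -0.99 ± 0.07 (SE, limma adjusted p = 1.42e-05). Of 40 translation factor genes, 2 rose and 1 fell, at a median of 0.06, none of which passed without each array.

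Matrix and adhesion genes gave falls and no rise. Of 35 extracellular matrix genes, none rose and 8 fell, at a median of -0.10. TGFBI, a matrix protein induced by TGF-beta, read 10.76 and 10.70 in the lipofection arrays, against 11.69 and 11.63 in the control arrays, a difference of -0.93 ± 0.07 (SE, limma adjusted p = 1.81e-05). THBS1, thrombospondin 1, read 9.69 and 9.68 in the lipofection arrays, against 10.82 and 10.65 in the control arrays, a difference of -1.05 ± 0.16 (SE, limma adjusted p = 0.00182). LAMB3, a laminin chain, fell by 0.55 on the log2 scale, a call lost when all its probes were averaged, at an adjusted p of 0.0607. Of 31 integrin and adhesion genes, none rose and 6 fell, at a median of -0.13. ITGA2, a collagen receptor subunit, read 6.50 and 6.59 in the lipofection arrays, against 7.65 and 7.48 in the control arrays, a difference of -1.02 ± 0.09 (SE, limma adjusted p = 6.22e-05). TNS3 (-0.82), a focal adhesion protein, and ALCAM (-0.43), a cell adhesion molecule, fell too. CLDN1, a tight junction protein outside these lists, was among the 20 largest falls, at 11.49 and 11.55 in the lipofection arrays, against 12.88 and 12.56 in the control arrays.

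Signalling genes of TGF-beta, Wnt and Notch gave more falls than rises. Of 34 TGF-beta and BMP genes, 1 rose and 7 fell, at a median of -0.10. LTBP2 and PMEPA1, a binder of matrix fibres and a feedback inhibitor of TGF-beta, differed by -0.70 and -0.73. BMP4, the ligand, was the rise, reading 5.91 and 5.85 in the lipofection arrays, against 5.26 and 5.32 in the control arrays. Of 24 YAP and TEAD targets, 1 rose and 2 fell, at a median of -0.11. ANKRD1, a standard readout of YAP, read 9.63 and 9.46 in the lipofection arrays, against 10.70 and 10.45 in the control arrays, a difference of -1.03 ± 0.11 (SE, limma adjusted p = 0.000214), and NT5E differed by -0.51. Of 34 Wnt and Notch genes, 2 rose and 6 fell, at a median of -0.16, among them NKD2, an inhibitor of Wnt signalling, with 8.05 and 7.89 in the lipofection arrays, against 8.77 and 8.79 in the control arrays. The Notch ligand JAG1 (-0.67) and the Notch target HES4 (-0.56) fell as well. IGFBP3, which binds insulin-like growth factors, read 8.51 and 8.48 in the lipofection arrays, against 9.64 and 9.51 in the control arrays, a difference of -1.08 ± 0.09 (SE, limma adjusted p = 4.65e-05), in a list of 29 insulin and mTOR genes of which 3 rose and 2 fell, at a median of 0.03.

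Of 39 actin, tubulin and cytoskeleton genes, 1 rose and 5 fell, at a median of -0.05, and the keratin KRT8 at -0.51 was the one that passed without each array. Heparan sulfate genes, which make the sugar chains to which lipid complexes bind at the cell surface, gave 2 rises and 3 falls of 18, at a median of -0.10. GPC1, a core protein that carries these chains, read 6.77 and 6.82 in the lipofection arrays, against 6.13 and 6.32 in the control arrays, and HS3ST3A1, a sulfotransferase that modifies them, read 10.24 and 10.20 in the lipofection arrays, against 10.69 and 10.76 in the control arrays. Of 13 metallothionein and zinc genes, with a median of 0.07, MT1X was the 1 member that rose, at 13.87 and 13.87 in the lipofection arrays, against 13.12 and 13.24 in the control arrays. SAT1, which marks polyamines for breakdown, rose by 0.42 in a list of 10 polyamine genes with 1 rise and 1 fall, at a median of 0.01.

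Of 363 ZNF zinc finger genes, 24 rose and 16 fell, or 6.61% and 4.41%, against 4.95% and 6.92% of all genes, and the median of the list was 0.03. ZNF671 read 7.59 and 7.497 in the lipofection arrays, against 6.78 and 6.68 in the control arrays, ZNF165 (0.55) and ZNF416 (0.48) rose as well, and ZNF69 (-0.68) and ZNF488 (-0.59) fell. Chromatin modifiers gave 3 rises and 2 falls of 41 (median 0.04), circadian clock genes 1 and 1 of 15 (median 0.05), and nuclear receptors 1 and 3 of 16 (median -0.04), none of which passed without each array.

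**Figure D3:**
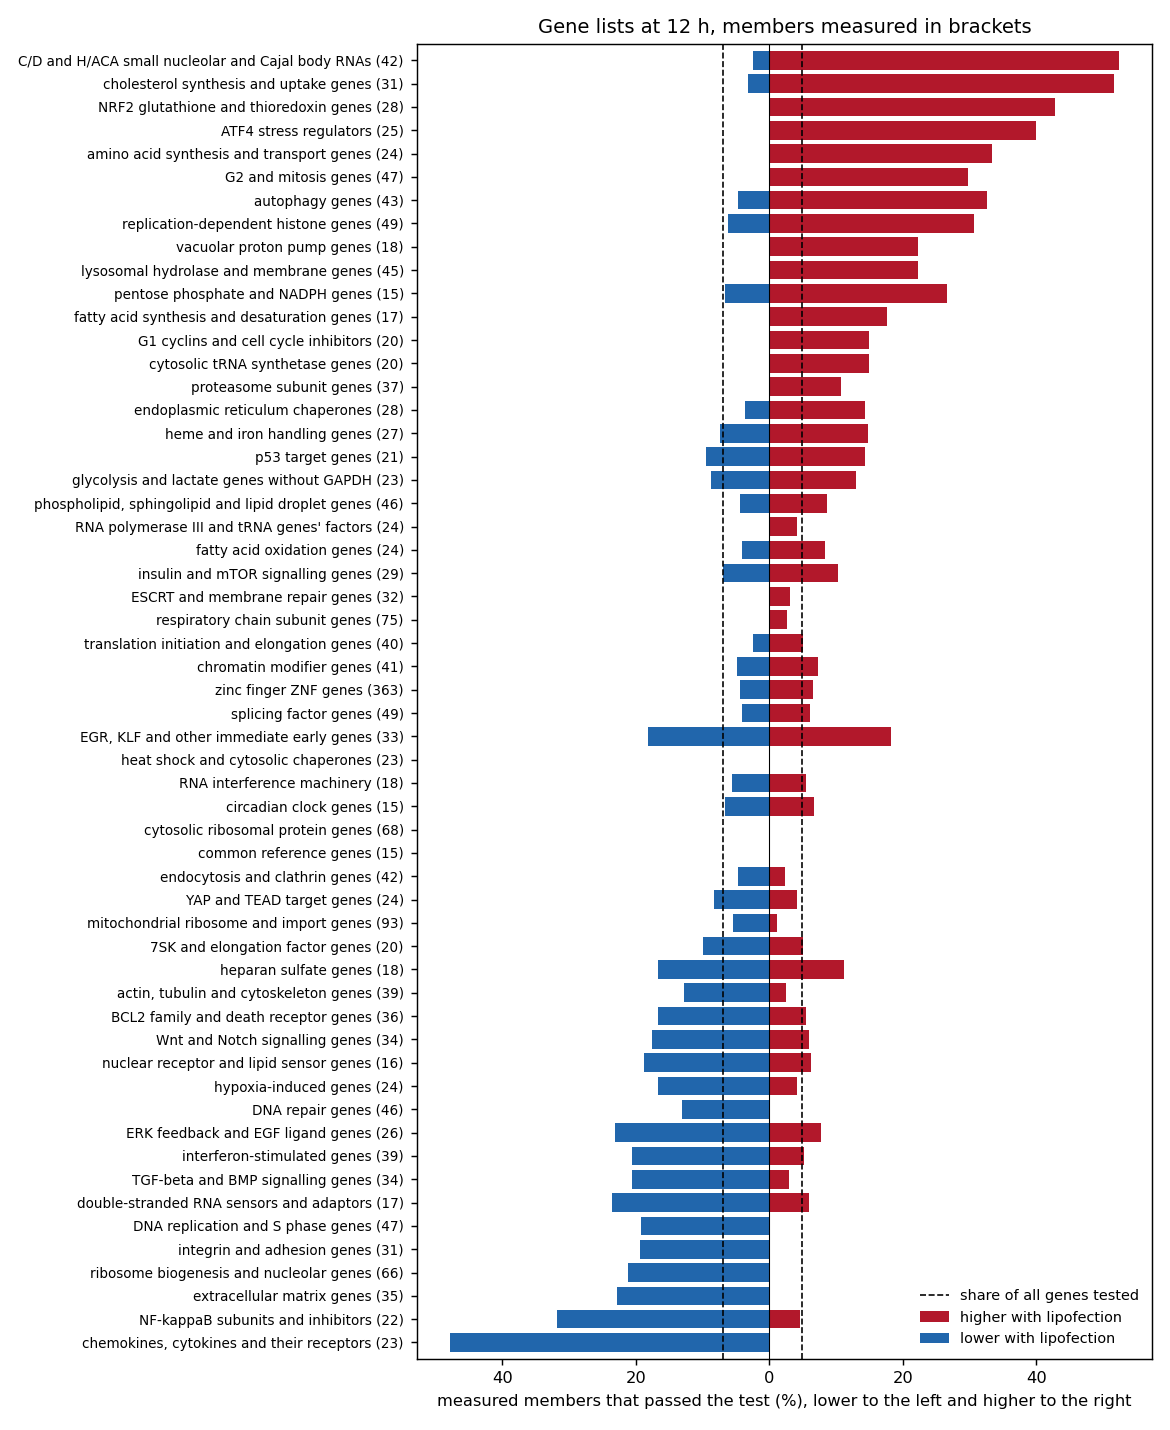
Share of the measured members of each gene list (number in brackets) that rose with lipofection (red, to the right) or fell (blue, to the left), in percent, for lists of 15 or more measured genes, with dashed lines at the shares of all genes tested, 4.95% and 6.92%. Small nucleolar RNAs and cholesterol genes stand at the top with over 50% risen, and chemokines and cytokines at the bottom with 47.8% fallen.

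Several of the 20 largest falls lay outside the gene lists. ALPK2, an alpha kinase, read 8.25 and 8.35 in the lipofection arrays, against 9.80 and 9.66 in the control arrays, a difference of -1.43 ± 0.10 (SE, limma adjusted p = 1.04e-05). SLC16A9, of the monocarboxylate transporter family, read 9.10 and 9.11 in the lipofection arrays, against 10.26 and 10.14 in the control arrays. In both the lipofection arrays lay more than 1 log2 unit under the controls. TAFA3 (-1.13), which encodes a secreted protein, LAYN (-1.002), a hyaluronan receptor, and HOATZ (-1.002), FBXL21P (-1.02) and COXFA4L3 (-0.99) completed them.

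Calls also varied with the genomic span of a gene, from start to end with introns. The median span was 22.9 kb for the 564 protein-coding genes that rose, 37.1 kb for the 822 that fell and 29.4 kb for the 10247 others. Genes of over 200 kb rose in 2.85% and fell in 8.92% of 807 cases, while genes of 1 to 5 kb rose in 4.81% and fell in 5.62% of 1103. Under 1 kb, 16.3% of 98 genes rose. Of these, 43 were histone genes, with 14 rises, and the other 55 had 2. Median intensity was 8.61 in genes of 20 to 50 kb and 7.20 in those over 200 kb, and under 1 kb it was 5.76, so the same shares were set side by side within 4 equal bins of mean intensity. In the 4 bins from dim to bright, 4.58%, 12%, 9.04% and 11% of genes over 100 kb fell, against 3.06%, 6.73%, 8.08% and 6.58% of genes of 20 kb or less. For rises the shares were 1.47%, 4.41%, 4.34% and 3.44%, against 2.98%, 8.15%, 7.78% and 4.99%. These shares are descriptions and were not tested.

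**Figure D4:**
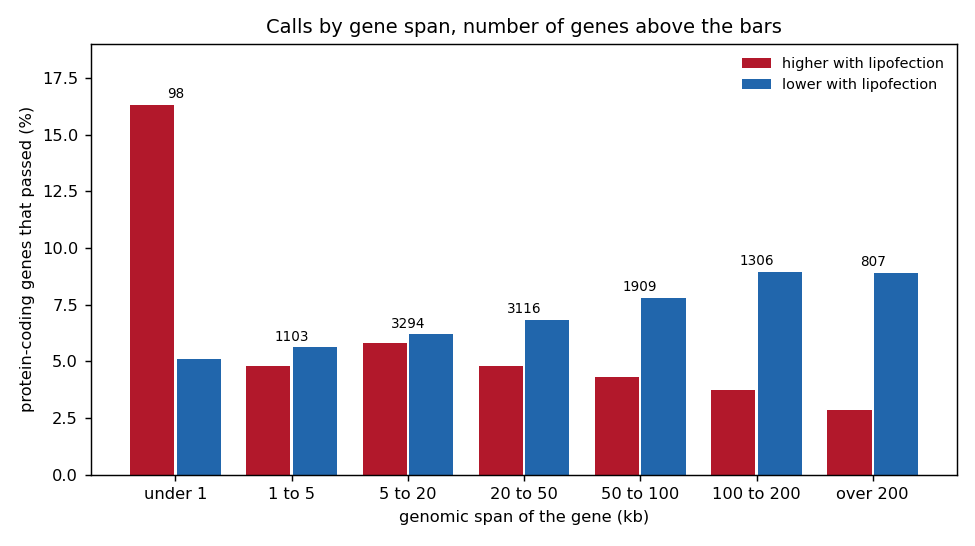
Share of protein-coding genes (%, y axis) that rose (red) or fell (blue) with lipofection at 12 h by genomic span (kb, x axis), with the number of genes above each pair of bars. The share that fell is 5.62% at 1 to 5 kb and 8.92% over 200 kb, the share that rose is 4.81% and 2.85%, and the bar of 16.3% under 1 kb holds the histone genes.

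By class of gene, 53.7% of 41 snoRNA genes rose, against 4.85% of 11633 protein-coding genes, 1.63% of 307 long noncoding RNA genes and 5.13% of 117 transcribed pseudogenes. Protein-coding genes in the dimmest of these bins passed least often, with 2.2% higher and 3.85% lower. Promoters with a TATA box, TATAAA within 250 bases on either strand, were 5.92% of all, 9.39% of the genes that rose and 7.13% of those that fell. Among the 55 genes with a promoter that rose by 1.6-fold or more, the share was 23.6%, and among the 72 that fell as far it was 12.5%. Without the histone, cholesterol and mitosis lists it was 15.4% of the 39 that rose as far and 12.5% of the 72 that fell, 7.76% of all that rose and 5.62% of all genes. The cyclic AMP response element, TGACGTCA, was in 10.9% of those 55, but in 3.13% of all 479 that rose, in 1.6% of those that fell and in 2.82% of all promoters. GABARAPL1 held it 30 bases before its start, and the match is shown in capitals.
GABARAPL1, chr12:10212627-10212876, plus strand: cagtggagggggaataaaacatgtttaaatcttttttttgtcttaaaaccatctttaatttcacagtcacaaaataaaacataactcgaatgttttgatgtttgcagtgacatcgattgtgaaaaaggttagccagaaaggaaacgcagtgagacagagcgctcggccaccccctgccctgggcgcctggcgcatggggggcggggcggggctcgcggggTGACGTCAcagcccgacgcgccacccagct

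Probes of the same gene mostly gave the same direction. For 209 further probes of genes that passed, 161 had the same sign as the probe that stood for the gene, 41 passed with the same sign and 3 passed with the opposite one. The 3 were in RUNX1, TRIM13 and UBE2G2, and these genes were named for that disagreement after their values were seen. For this comparison the authors' deposited table of changes, which starts at 1.6-fold, lists 105 probes, 57 higher and 48 lower, and all 105 had the same sign here, with 104 of them past the threshold. In the authors' deposited table, the extreme signed folds were 5.87 and -3.88.

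The difference from the other carrier was tested directly on the 12 h arrays, lipofection minus PTD-DRBD, where the same siRNA was used. Here 789 genes were higher and 1004 lower, 6.51% and 8.29% of the genes tested. Both contrasts use the same lipofection arrays, so their calls are not independent. Of the 600 genes that rose against the control, 286 were also above PTD-DRBD and 7 below it, and 307 did not pass. Of the 839 that fell, 403 were below PTD-DRBD and 11 above it, and 425 did not pass. GAPDH itself differed by 2.09 (limma adjusted p = 9.05e-08), being higher with lipofection than with PTD-DRBD. NOL12 differed by 0.12 (limma adjusted p = 0.544) and CLDN1 by -0.26 (limma adjusted p = 0.307), 2 of the largest falls for which no difference between the carriers passed.

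By list, 15 of 31 cholesterol genes, 11 of 28 NRF2 genes and 13 of 45 lysosomal genes were higher with lipofection than with PTD-DRBD, and none of the 3 lists had a member lower. HMOX1 differed by 2.03 (limma adjusted p = 9.05e-08) and INSIG1 by 1.09 (limma adjusted p = 3.45e-05). Ribosome biogenesis genes were lower than with PTD-DRBD in 28 of 66 and higher in none, a median of -0.28. Against the control, the median of this list was -0.14 with lipofection and 0.12 with PTD-DRBD, where 5 genes rose and 1 fell. Of 24 amino acid genes, 2 were higher than with PTD-DRBD and 5 lower. ASNS, which rose against the control, was lower than with PTD-DRBD, differing by -0.53 (limma adjusted p = 0.000909). Against PTD-DRBD, 10 of 23 cytokine genes were lower and none higher, with CCL2 at -1.12 (limma adjusted p = 0.00103). IFIT2 was higher with lipofection than with PTD-DRBD, by 0.96 (limma adjusted p = 0.000123). PTD-DRBD was also set against the control, where 414 of all 12117 genes rose and 541 fell. There the 31 cholesterol genes gave 6 rises and 1 fall, and the 24 amino acid genes 10 and 1. The 28 NRF2 genes gave 2 rises and 2 falls, and the 45 lysosomal genes 1 and 4. HMOX1 (0.61), HMGCS1 (0.77), EGR1 (1.01) and FOSB (1.21) rose with PTD-DRBD too, by the log2 amounts in brackets. Of 25 regulators of the integrated stress response, 12 rose and 1 fell with PTD-DRBD, at a median of 0.28. Of 35 matrix genes 2 rose and 7 fell, and of 34 TGF-beta and BMP genes none rose and 9 fell.

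The lipofection effect at 24 h was set against that at 12 h within the same fit. The effect was more positive at 24 h in 481 genes and more negative in 487, 3.97% and 4.02% of the genes tested and 7.99% in all. FOS, at 2.18 at 12 h, differed from control by 0.28 at 24 h, HMGCS1 by -0.0039 and CCL2 by 0.13. SNORD15B, at 2.67 at 12 h, differed by 4.40 at 24 h, so that it went further while these 3 went back towards the control. All 4 of these changes passed, and that of FOS was lost with arrays left out.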

How the data were processed

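Total RNA of H1299 cells was labelled with biotin and read on 12 Illumina BeadChips, 2 in each of 6 groups, per the labels' protocols. The deposited non-normalized table holds raw intensities of 48701 probes with a detection p-value each, read with BeadStudio per the submitters' processing notes. The authors' normalized intensities were used as an alternative, and the score in the authors' deposited table of changes is a signed fold. Their normalization method is not named in the labels.

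With neqc (limma 3.58.1, R 4.3.3), raw intensities were background-corrected with detection p-values, offset by 16, quantile normalized and log2 transformed. Probes needed a detection p under 0.05 in every array of 1 group or more, which kept 19631, and each of 12117 genes was represented by its brightest probe on average. The 5588 kept probes without 1 named gene were fitted apart. One limma model with 6 group means used all 12 arrays (6 residual degrees of freedom), with Benjamini-Hochberg adjustment. An exact permutation test of 2 arrays against 2 cannot go below p = 0.333. Arrays were also simulated with independent normal noise at the spread taken from the fit. There, 80% of genes changed by 0.5 log2 and 99% of those changed by 1 were recovered, with 6 false calls over 12117 genes. Error shared by the arrays of a group was not simulated, so these shares need not hold for the real arrays.

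Where a gene was below detection on both arrays of a group, the fold is a lower bound, in which the mean of the other group is set against the larger, on each array, of 2 values: the lowest signal among detected probes and that of the gene itself. Setting such genes to their bound moved no median of the 63 lists by more than 0.041 log2. Named were GAPDH, the 20 largest rises and falls with non-overlapping arrays, up to 6 members of each list with the largest differences, and members marked as defining, and the text gives a part of these. The comparison, the lists and the 22 promoter motifs were chosen with earlier results of these data known, and no list was tested as a set. The kappaB and serum response motifs were widened to their consensus after narrower forms had been counted. The motifs were the elements of NRF2, AP-1, CREB, ATF4, TFEB, SREBP, NF-kappaB in 3 forms, SRF in 2, E-box factors, NF-Y, HSF, the cell cycle homology region, interferon factors, the TATA box, NRF1, E2F, ETS, YY1 and the GC box. Promoters came from RefSeq on GRCh38.p14 and matched 9918 genes. Gene symbols came from the platform annotation. Chip positions are not in the labels, so chips were not tested as batches. Alternatives were other normalizations, detection filters, moderation, probes and each array left out, and the spread between arrays, not a read depth, sets the precision.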

Additional observations from a re-analysis of the deposited data

Results flagged for a closer look

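For 70 of the named genes the effect of lipofection differed between 24 h and 12 h, by the test of that difference in limma at adjusted p-values of up to 0.0484. These genes were named for their differences at 12 h, so that how many were smaller at 24 h is not read as a result. Values are the effect at 24 h minus the effect at 12 h, in log2 units. By these values, a negative difference for a gene that was higher at 12 h, or a positive one for a gene that was lower, means that the effect was weaker or turned at 24 h. In 28 of the 70 the effect at 24 h had the opposite sign, in some of them near 0, such as HMGCS1 at -0.0039. ANKRD1 went from -1.03 at 12 h to 0.98 at 24 h, NFKB2 from -0.52 to 0.60 and ABCA1 from -0.29 to 0.55. KIF20A went from 0.52 to -0.52. With each of the 8 arrays of these groups left out in turn, between 41 and 61 of the 70 differences passed, all 70 kept their sign, and 37 passed in every such fit.

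The sterol and lipid genes had differences of -1.22 for HMGCS1, -0.82 for MSMO1, -1.11 for MVD, -0.91 for MVK, -0.89 for IDI1, -0.78 for INSIG1, -1.35 for STARD4, -0.63 for SC5D, -0.44 for NSDHL, -0.58 for LPIN1, 0.83 for ABCA1 and 0.53 for MGLL. In the antioxidant, stress and autophagy genes the difference was -1.12 for SLC7A11, -0.59 for GCLM, -0.76 for ATF3, -0.75 for SESN2, -0.88 for TRIB3, -0.45 for ASNS, -0.52 for GABARAPL1, -0.55 for TP53INP1, 0.61 for OPTN and -0.42 for SAT1. Early response genes gave -1.90 for FOS, -0.91 for FOSB, -0.65 for EGR1, -0.66 for RASD1, 0.65 for BATF3, 0.56 for HBEGF and 0.53 for IER3. Cytokine and NF-kappaB genes, all lower at 12 h, gave 1.93 for CCL2, 1.18 for CXCL8, 1.16 for CXCL1, 0.69 for CXCL2, 1.04 for CCL20, 1.599 for TNFRSF9, 1.44 for TRAF1, 1.05 for CD83, 0.95 for RELB and 1.13 for NFKB2. Among cell cycle and death genes the values were -0.75 for KIF4A, -1.04 for KIF20A, -0.74 for NDC80, -0.59 for CDC25C, 0.49 for MCM6, 0.67 for MCM10, 0.60 for CCNE1, 0.77 for BMF, 0.68 for FAS and -0.61 for TNFRSF10D. In small nucleolar RNAs, where the effect was larger at 24 h, the differences were 1.73 for SNORD15B, 1.74 for SNORD4A and 0.82 for SNORD38B. Matrix and signalling genes gave 2.01 for ANKRD1, 0.94 for LAMB3, 0.74 for IGFBP3, 0.51 for JAG1 and 0.56 for NKD2. The remaining genes gave 1.01 for AFF3, 1.02 for ALPK2, 0.76 for COXFA4L3, 0.91 for H2BC11, 0.40 for IFIH1, 0.66 for LAYN, 0.43 for NIP7, 0.60 for SLC16A9, 0.75 for SRSF7, 0.78 for TAFA3, -0.66 for ZNF165, -0.87 for ZNF671 and 0.70 for ZNF69.

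Among 5588 probes above background that have no single gene name in the platform annotation, 109 were higher with lipofection at 12 h and 119 lower, or 4.08%, against 8.62% of named probes. The extremes were ILMN_1716012 at 1.82 and ILMN_1866901 at -1.96. These probes enter no other result.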

How the results depend on the processing

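With each array left out in turn, the number of genes past the threshold at 12 h was between 516 and 710, with 204 to 307 higher and 312 to 403 lower, against 1439, 600 and 839 with all arrays. Without lipofection replicate 1 or 2 it was 616 or 516, and without control replicate 1 or 2 it was 638 or 710. The single array left in such a group takes its spread from the other groups. For lipofection against PTD-DRBD the range was 697 to 1115, against 1793. For the change of the lipofection effect between 24 h and 12 h it was 177 to 1091, against 968, and 1533 without background correction, 1548 with the authors' normalized values and 1534 with an intensity trend and robust moderation, and the cause of these 3 higher counts was not tested. A fold of at least 1.6 beside the adjusted p left 178 genes, 84 higher and 94 lower. The other normalizations, filters, moderation, arrays and probes gave 1346 to 1761 genes at 12 h. Named genes that passed were for the most part chosen among those that passed in every fit without an array. How many of them passed under the alternatives is therefore not read as a result. When all probes of a gene were averaged, RUNX1 turned to 0.20, TRIM13 turned to 0.0018 and UBE2G2 turned to 0.17; the probes of these 3 genes disagree. Of 63 list medians, 15 moved by more than 0.067 log2 under at least 1 alternative, among them small nucleolar RNAs at 0.14 and histone genes at 0.14 after correction for gene length. No paired analysis was possible because the sample numbers in the labels are not shared between groups. The number of arrays limits the precision, and dim genes have only bounds.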
